A study of Homo sapiens with 4 samples.

Results

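Microglia-like cells treated with semagacestat, an inhibitor of γ-secretase, were compared with vehicle-treated cells while both responded to bacterial lipopolysaccharide (LPS). The comparison set 3 SemaLPS cultures (2 µM semagacestat for 22 h, LPS added at 200 ng/mL during the final 6 h) against 3 LPS cultures (the solvent DMSO in place of semagacestat, and the same LPS). A cell was counted when its leading hashtag, an antibody barcode that marks 1 culture, had at least 30 unique molecular identifiers (UMIs) and at least 3 times the next hashtag, provided that 1000 or more genes were detected in it and that no more than 10% of its UMIs were mitochondrial. This gave 8762 cells in the 6 cultures, out of 16937 cells in all 12 cultures and 28943 barcodes. The LPS cultures held 1459, 1368 and 1293 cells, and the SemaLPS cultures 1522, 1774 and 1346. The other 6 cultures received DMSO (Ctrl, 3 cultures) or semagacestat (Sema, 3 cultures) with the buffer PBS in place of LPS, and entered the same fit.

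All cultures descend from H9, a single human embryonic stem cell line, through myeloid precursors collected in 1 harvest. The precursors matured for a week in a medium with TGF-β, IL-34, M-CSF and cholesterol, and were detached with the transcription blocker actinomycin D. The culture is the replicate, so each p-value measures the spread between cultures of 1 line. The study asked whether a strong signal that does not pass through γ-secretase overrides the changes that its blockade brings.

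γ-Secretase is a membrane protease that cuts the stubs left after the outer parts of many membrane proteins are shed. Its best-known substrate in signalling is Notch, whose freed intracellular part joins the DNA-binding protein RBPJ and switches on genes such as HES1. In microglia its substrates include TREM2 and other surface receptors. LPS is sensed by the receptor TLR4, which drives NF-κB and MAP kinase signalling and a burst of cytokine and chemokine transcripts.

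The 6 cultures held between 42864782 and 58657291 UMIs, with medians of 31026.5 to 32132 UMIs per cell. The hashtag of LPS-3 was weak, with a median of 311 UMIs against 917.5 to 1643 in the other 5 cultures, and 63.5% of its cells had a hashtag ratio under 10. The 2 libraries shared 91 barcode sequences, which were treated as separate cells. All 10 macrophage and microglia markers were measured, and their summed level lay between 6890 and 7210 CPM (UMIs of a gene relative to all UMIs of the culture) in LPS and between 7090 and 7530 CPM in SemaLPS cultures. Monocyte markers summed to 1330 to 1390 CPM in LPS and 1350 to 1430 CPM in SemaLPS cultures. Dendritic cell markers summed to 177 to 213 CPM in LPS and 163 to 201 CPM in SemaLPS cultures. For endothelial markers the sums were 35.9 to 47.7 CPM in LPS and 34.9 to 42.4 CPM in SemaLPS cultures. Markers of mast cells and of erythroid cells summed to under 0.3 CPM in each of the 6 cultures. The markers of fibroblasts and stroma summed to 3.27 to 4.59 CPM in LPS cultures and to 2.49 to 48.8 CPM in SemaLPS cultures, the highest in SemaLPS-2. LPS itself changed most of the transcriptome: 65.1% of genes passed the test between LPS and Ctrl cultures.

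Under LPS, semagacestat moved a small set of genes by small amounts. Of 15383 genes tested, 241 (1.57%) passed edgeR's quasi-likelihood test with the culture number as a block and Benjamini-Hochberg adjustment at 0.05 over all genes. Of these, 150 (0.975%) rose and 91 (0.592%) fell. The unadjusted p was under 0.05 for 2046 genes. The median size of the log2 fold change among the called genes was 0.24, and 27 of them moved by over 1.5-fold (16 up, 11 down). Of the called genes, 239 moved the same way in all 3 pairs of same-numbered cultures, and in 109 of them the SemaLPS and LPS cultures did not overlap, against 9.56% of all tested genes. The calls were made from these same cultures with the pairing as block, so both counts are partly built in. They only describe the calls and give them no separate support. Without the block, 2 genes passed, both lower. The count fell to 127 without LPS-1 (87 higher, 40 lower), to 134 without SemaLPS-1 (91 and 43) and to 150 without SemaLPS-2 (76 and 74), and without LPS-2 it was 252 with 106 higher and 146 lower. It was 147 when a hashtag ratio of at least 10 was required, and 79 with the cells of library 1 alone. Of the 241 calls, 72 held without each of the 12 cultures in turn (45 higher, 27 lower).

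**Figure D1:**
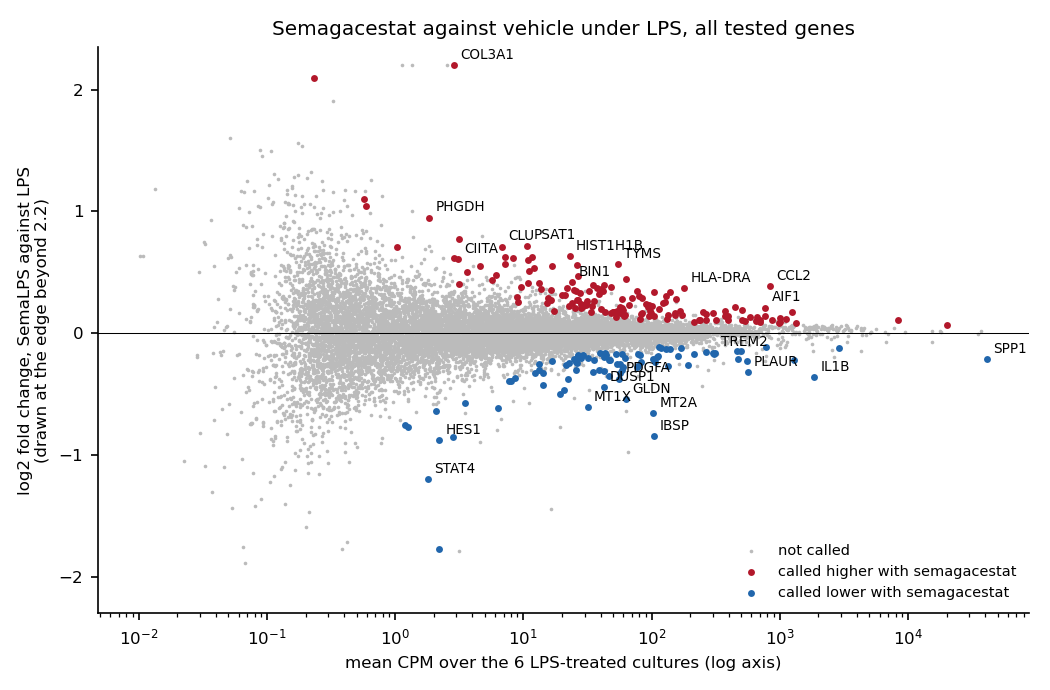
Log2 fold change between SemaLPS and LPS cultures (vertical axis, values beyond 2.2 drawn at the edge) against the mean CPM of the 6 LPS-treated cultures (horizontal log axis) for the 15383 tested genes. The 150 called rises (red) and 91 called falls (blue) lie mostly within 1 unit of 0, and COL3A1 is drawn at the upper edge.

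HES1, the transcriptional repressor that Notch switches on, fell. It stood at 2.99, 2.85 and 2.75 CPM in LPS-1 to LPS-3 and at 1.62, 1.60 and 1.45 CPM in SemaLPS-1 to SemaLPS-3. Every SemaLPS culture lay below every LPS culture. The log2 fold change was −0.88 (SE 0.12, adjusted p = 0.00187), read from 108 to 135 UMIs per LPS culture and 61 to 88 per SemaLPS culture. Without LPS the change was −0.89 (SE 0.12) on the same scale, and the interaction, which tests whether the effect of the inhibitor differs with LPS, was 0.01 (SE 0.18, adjusted p = 0.998). The call held in every alternative run, including the fit without the block and the removal of each culture. In cells thinned to 10000 UMIs, a HES1 UMI was seen in 2.52, 2.91 and 2.58% of LPS cells and in 1.63, 0.863 and 0.904% of SemaLPS cells. In unthinned cells the shares were 5.89, 6.12 and 6.41% against 3.26, 3.57 and 2.41%. Fewer HES1-expressing cells and less HES1 RNA per cell cannot be told apart at this depth.

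HES1 (ENSG00000114315) lies on chromosome 3 at 194136145 to 194138732, plus strand (GENCODE v29, GRCh38). The 250 bases before its RefSeq start (GRCh38.p14, chr3:194135898-194136147, plus strand) are shown because they hold the letters TGGGAA, the core that RBPJ binds, 2 times, beginning 84 and 70 bases before the start. The capitals mark these matches.
HES1: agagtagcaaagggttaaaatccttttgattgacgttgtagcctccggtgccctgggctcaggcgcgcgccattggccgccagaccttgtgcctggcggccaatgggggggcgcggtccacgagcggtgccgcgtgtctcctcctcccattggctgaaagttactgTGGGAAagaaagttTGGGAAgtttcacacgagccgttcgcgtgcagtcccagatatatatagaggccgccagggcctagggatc
TGGGAA on either strand occurred in 7321 of 35116 RefSeq promoter windows of this length (20.8%). Among windows of called genes the share was 16.7% for those that fell (19 of 114) and 22.7% for those that rose (40 of 176).

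The rest of the Notch list showed no second call. Of its 16 genes, 13 were tested, 1 fell (HES1) and none rose, beside 0.592% of all genes called lower. The median log2 fold change was −0.06 against 0.00 over all tested genes. HEY1, another repressor induced by Notch, stood at 0.504 CPM in LPS and 0.309 CPM in SemaLPS cultures in the mean (log2 fold change −0.72, adjusted p = 0.251). NRARP, a feedback regulator of Notch, was at 1.42, 0.678 and 1.32 CPM in LPS and 1.32, 0.981 and 1.02 CPM in SemaLPS cultures (−0.02, SE 0.17, adjusted p = 0.986). The cultures of NRARP overlapped fully, and its direction flipped with a stricter hashtag ratio or limit, with library 1 alone and without LPS-1, LPS-3 or SemaLPS-3. None of 14 Notch receptors, ligands and partners passed. RBPJ itself was at 155 CPM in LPS and 164 CPM in SemaLPS cultures in the mean (0.08, adjusted p = 0.134).

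Genes for subunits of the protease gave no call. PSEN2, a catalytic subunit, stood at 7.87, 10.1 and 9.06 CPM in LPS and 7.11, 7.99 and 9.68 CPM in SemaLPS cultures, with overlap (−0.13, SE 0.08, adjusted p = 0.516). NCSTN, APH1A, APH1B and PSENEN, which encode other subunits, had log2 fold changes between −0.06 and 0.01.

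Among genes listed as substrates of γ-secretase, 35 of 38 were tested, 3 fell and 1 rose, with a median of −0.03. The shares over all genes were 0.592% called lower and 0.975% called higher. TREM2, a lipid-sensing receptor of microglia, stood at 300, 337 and 355 CPM in LPS and 259, 310 and 320 CPM in SemaLPS cultures. The groups overlapped, but TREM2 was lower in all 3 pairs (−0.16, SE 0.03, adjusted p = 0.00596), and the call held without each culture. ITM2B, the listed gene that rose, stood at 979, 935 and 991 CPM in LPS and 1087, 1034 and 1049 CPM in SemaLPS cultures, with no overlap (0.13, SE 0.02, adjusted p = 0.00197). Whether γ-secretase cuts the membrane protein that ITM2B encodes was not tested. SIRPA, the receptor for the "do not eat" signal CD47, fell by 0.12 (SE 0.03, adjusted p = 0.0293). CXCL16, a chemokine held in the membrane, fell by 0.13 (SE 0.03, adjusted p = 0.0418). The calls of SIRPA and CXCL16 were lost in 4 and 6 of the 12 fits that left out a culture. The adjusted p without LPS-1 was 0.182 for SIRPA and 0.216 for CXCL16.

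**Figure D2:**
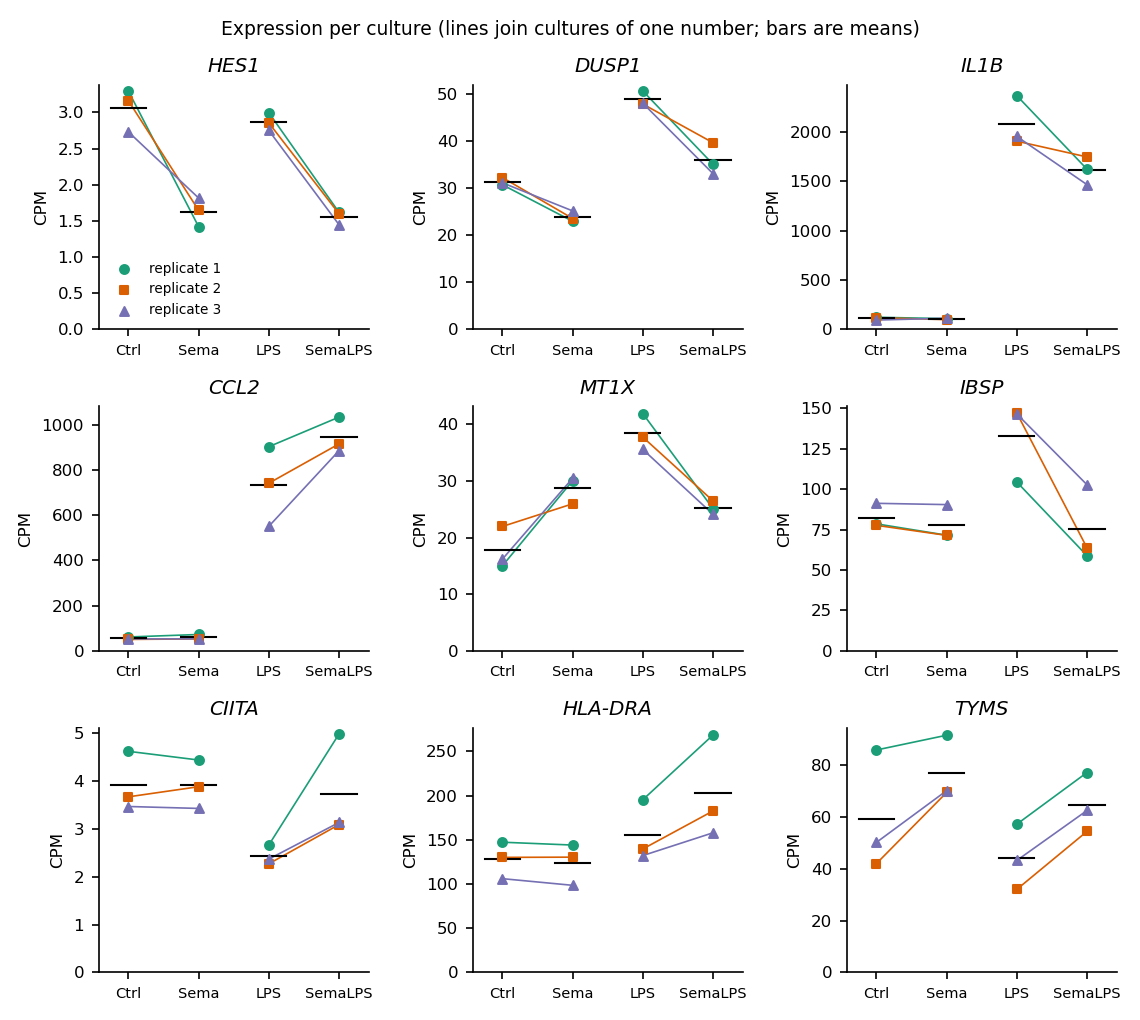
CPM of 9 genes in each of the 12 cultures (vertical axes start at 0), by condition. Lines join same-numbered cultures and bars are condition means: HES1 and DUSP1 were lower with semagacestat at both LPS levels, while IL1B and IBSP differed under LPS and MT1X moved in opposite directions.

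MHC class II genes, which present antigen to helper T cells, rose as a group under LPS. Of 12 genes on the list, all were tested, 11 rose and none fell. Their median log2 fold change was 0.36, beside 0.975% of all genes called higher and a median of 0.00 over all tested genes. HLA-DRA, the shared α chain of HLA-DR, stood at 195, 140 and 132 CPM in LPS and 269, 183 and 158 CPM in SemaLPS cultures. The groups overlapped through the high level of number 1 cultures, and each SemaLPS culture lay above the LPS culture of its number (0.37, SE 0.06, adjusted p = 0.006). CD74, the invariant chain that guards the peptide groove, rose from a mean of 469 to 538 CPM (0.19, adjusted p = 0.00322). HLA-DMB, a subunit of the peptide-loading catalyst HLA-DM, stood at 31.1, 29.6 and 25.2 CPM in LPS and 38.7, 35.3 and 35.1 CPM in SemaLPS cultures, with no overlap (0.34, SE 0.05, adjusted p = 0.00176). Its partner HLA-DMA rose by 0.36 on the log2 scale (adjusted p = 0.00196). HLA-DOA, whose product restrains HLA-DM, was the member that did not pass, at 0.341 and 0.389 CPM in the mean (0.18, adjusted p = 0.873).

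CIITA, the coactivator that switches on the class II genes, rose. It was read from 120, 97 and 93 UMIs in LPS-1 to LPS-3 and 234, 170 and 132 UMIs in SemaLPS-1 to SemaLPS-3. These counts are not scaled for depth, which was 44832947 UMIs in LPS-2 and 58657291 in SemaLPS-2. The log2 fold change was 0.61 (adjusted p = 0.0108), and it was 0.51 (adjusted p = 0.124) without LPS-1 and 0.46 (adjusted p = 0.0904) without SemaLPS-1. HLA-DQA1 (0.56, adjusted p = 0.0231), HLA-DPA1 (0.38, adjusted p = 0.00886) and HLA-DRB5 (0.35, adjusted p = 0.00954) also lost their calls without SemaLPS-1, with adjusted p of 0.147, 0.0629 and 0.0808. HLA-DQA1 lost it without LPS-1, LPS-2 and SemaLPS-3 as well, at an adjusted p of 0.108, 0.0974 and 0.0919, and HLA-DPA1 without LPS-1, at 0.0632. The other 7 calls held without each culture. HLA genes are near-identical between loci and vary between people, so the split of UMIs between HLA-DRB1 and HLA-DRB5, or between DQ genes, is uncertain.

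Between Sema and Ctrl cultures none of the 12 was called, and their median was −0.03. Their summed level was 1213, 975 and 938 CPM in LPS, 1546, 1203 and 1075 CPM in SemaLPS, 1184, 1054 and 954 CPM in Ctrl and 1154, 1075 and 906 CPM in Sema cultures. Of the 12, HLA-DRB1 passed the interaction, at 0.38 (SE 0.06, adjusted p = 0.0372), with an effect of 0.31 under LPS and −0.08 without it. HLA-DRA had an interaction of 0.42 (adjusted p = 0.127) and HLA-DPB1 of 0.41 (adjusted p = 0.0514), which did not pass. In thinned cells the 12 genes together gave a mean of 12.1, 9.76 and 9.11 UMIs per cell in LPS and 15.9, 11.7 and 10.6 in SemaLPS cultures. The share of cells with 20 or more such UMIs was 18.4, 13.6 and 12.3% in LPS and 26.7, 18.8 and 15.9% in SemaLPS cultures. A HLA-DRA UMI was found in 41.3, 34.6 and 31.1% of LPS cells and in 49.2, 41.6 and 35.3% of SemaLPS cells (unthinned 56.1, 51.2 and 46.2% against 64.5, 58.3 and 51.5%). MHC class I and peptide-loading genes, which serve killer T cells, gave no call among 15 (median −0.03).

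HLA-DMA (chromosome 6) is among the class II genes whose promoter window holds a Y box. Its 250 bases before the RefSeq start (GRCh38.p14, chr6:32953098-32953347, minus strand) are printed 5′ to 3′ with the Y box CTGATTGG, the site of the factor NF-Y, in capitals, 82 bases before the start.
HLA-DMA: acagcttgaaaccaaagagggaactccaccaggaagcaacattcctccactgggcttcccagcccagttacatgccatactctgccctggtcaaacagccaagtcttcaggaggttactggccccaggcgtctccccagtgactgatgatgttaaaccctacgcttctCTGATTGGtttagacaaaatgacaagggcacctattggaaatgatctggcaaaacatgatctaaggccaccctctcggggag
These exact letters, on either strand, were in 4 of 11 windows of class II genes (HLA-DRB1, HLA-DRB5, HLA-DQB1 and HLA-DMA) and in 3.81% of all windows. Among windows of called genes they were in 7.39% of those that rose and 1.75% of those that fell.

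**Figure D3:**
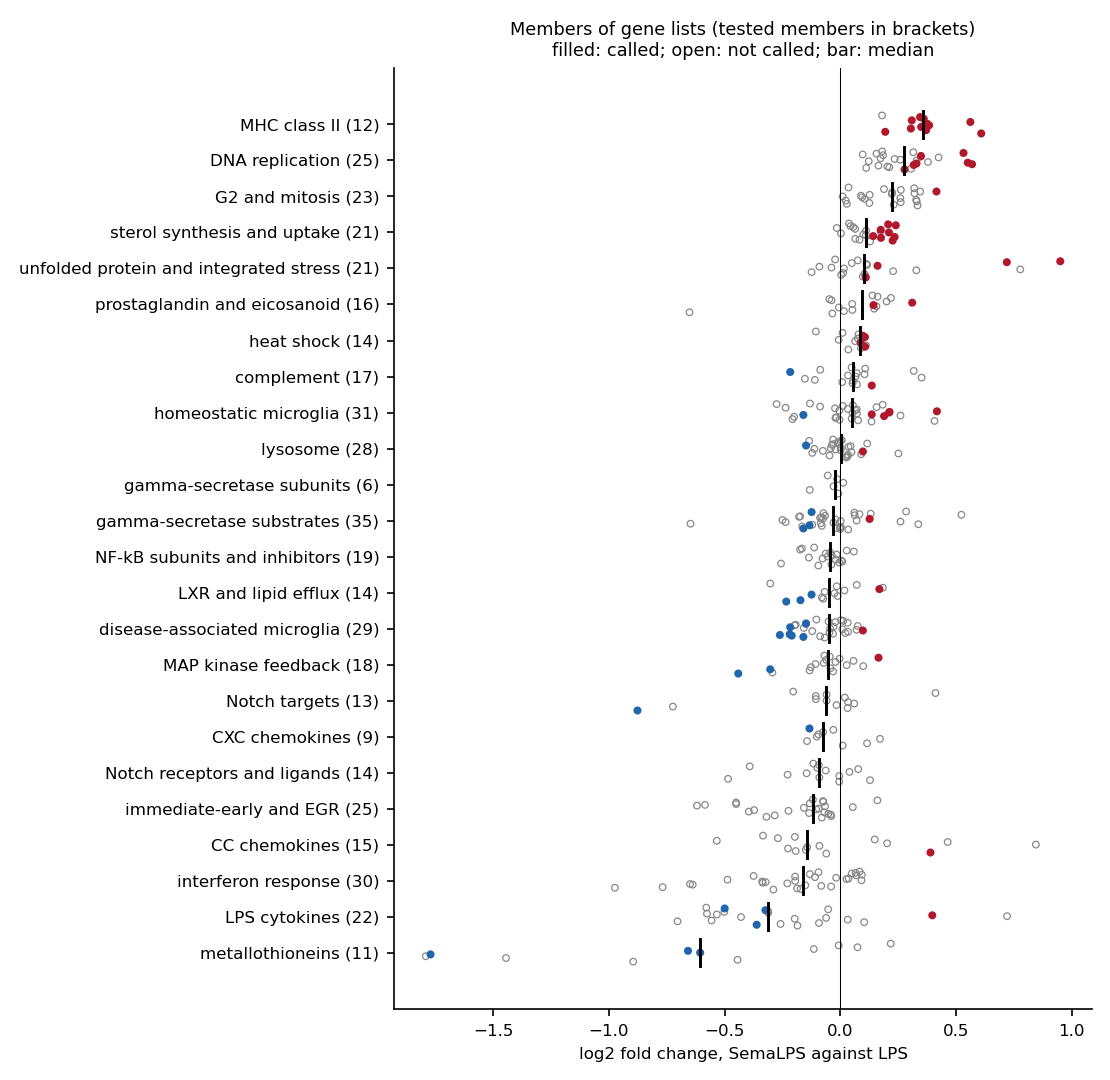
Log2 fold change between SemaLPS and LPS cultures (horizontal axis) for the members of 24 gene lists, with the tested number in brackets. Filled points passed the test and bars mark list medians, from −0.61 for metallothioneins to 0.36 for MHC class II.

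Of 25 genes of DNA replication, all tested, 7 rose, none fell and 18 did not pass, beside 0.975% of all genes called higher. All 25 lay above 0, with a median of 0.28, and the medians within pairs 1 to 3 were 0.09, 0.32 and 0.35. TYMS, which makes thymidylate for DNA, stood at 57.3, 32.1 and 43.3 CPM in LPS and 77.3, 54.5 and 62.6 CPM in SemaLPS cultures. The groups overlapped, but TYMS was higher in all 3 pairs (0.57, SE 0.09, adjusted p = 0.00347). RRM1 (0.33, adjusted p = 0.00322) and RRM2 (0.55, adjusted p = 0.00954), the subunits of ribonucleotide reductase, rose, as did TK1, a thymidine kinase (0.53, adjusted p = 0.0018). PCNA, the clamp of the replication fork, rose from a mean of 53.6 to 64.7 CPM (0.28, adjusted p = 0.035), and its call was lost in 5 of 12 fits that left out a culture. RRM2 lost its call without SemaLPS-2 (adjusted p = 0.0533). Of 54 tested histone (HIST) genes, 8 rose and none fell, among them the linker histones HIST1H1C (0.47, SE 0.07, adjusted p = 0.00212) and HIST1H1B (0.63, SE 0.13, adjusted p = 0.0243). The call of HIST1H1B was lost in 5 of 12 such fits, for example at an adjusted p of 0.15 without LPS-1. PCLAF, a PCNA-binding protein, rose by 0.44 on the log2 scale (adjusted p = 0.0106), and its adjusted p was 0.0859 without LPS-1 and 0.0617 without SemaLPS-2.

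For genes of G2 and mitosis the count was smaller: 23 were tested and 1 rose, beside 0.975% of all genes called higher. That gene was BIRC5, which guards chromosome segregation (0.41, adjusted p = 0.0337). All 23 lay above 0, with a median of 0.22. The medians within pairs were 0.37, 0.30 and −0.12, and the summed level was 547.8, 393.2 and 497.1 CPM in LPS and 708.3, 484.5 and 469.7 CPM in SemaLPS cultures, lower with semagacestat in pair 3. BIRC5 lost its call in 6 of 12 fits that left out a culture, for example at an adjusted p of 0.221 without LPS-1. The share of cells with at least 10 UMIs over 8 markers of dividing cells was 12.4, 8.55 and 9.59% in LPS and 16.4, 11.3 and 12.1% in SemaLPS cultures. In cells thinned to 10000 UMIs, with a limit of 5 such UMIs, the shares were 10.9, 6.94 and 8.52% against 14.4, 8.97 and 9.95%. Each SemaLPS culture lay above the LPS culture of its number, and the groups overlapped. When the cells with at least 10 such UMIs were left out, none of the 25 replication genes and none of 22 mitosis genes passed. Their medians were then 0.03 and −0.07, and HIST1H1B turned to −0.19 (adjusted p = 0.865), while HIST1H1C stayed called at 0.47 (adjusted p = 0.0022). Those cells were chosen by replication and mitosis genes, so leaving them out lowers these lists by construction. The 11 calls among class II genes held, with a median of 0.42.

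The replication genes were also higher without LPS, where 17 of 25 rose between Sema and Ctrl cultures and the median was 0.33. In that comparison 2.96% of all genes were called in either direction. Each LPS-treated culture lay below the culture of its number and inhibitor state without LPS, with summed levels of 510, 353 and 408 CPM in LPS, 566, 459 and 522 CPM in SemaLPS, 712, 471 and 500 CPM in Ctrl and 789, 649 and 633 CPM in Sema cultures. None of the 25 passed the interaction.

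**Figure D4:**
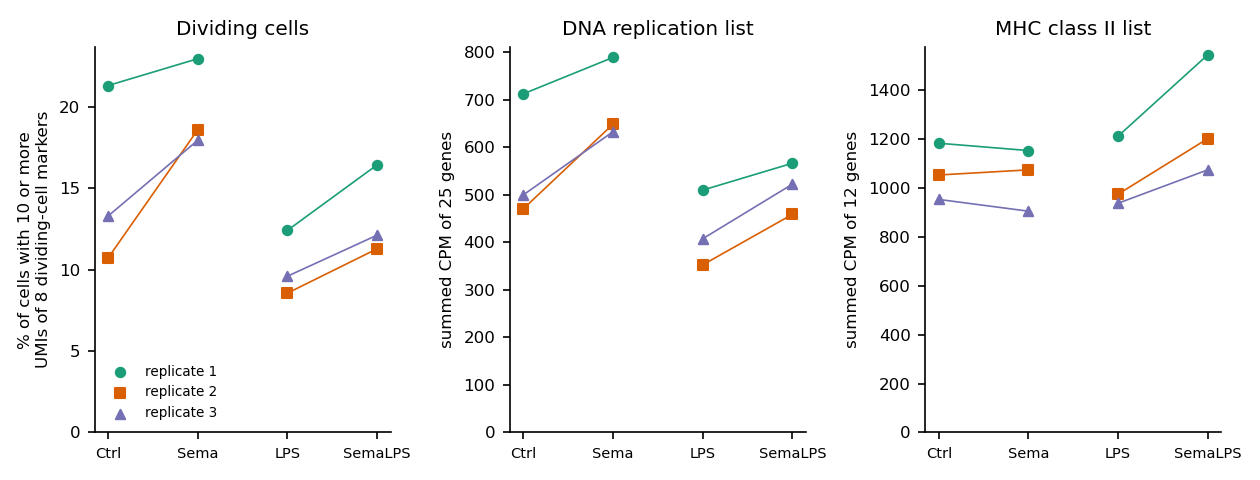
Share of dividing cells (left), summed CPM of 25 replication genes (middle) and summed CPM of 12 MHC class II genes (right) in each culture, with lines joining same-numbered cultures. The first 2 panels rise with semagacestat at both LPS levels, and the class II sum is higher in each SemaLPS culture than in the LPS culture of its number, with no such order between Sema and Ctrl.

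Among listed cytokines and other secreted signals, not all of them higher with LPS in these cultures, semagacestat lowered some and raised others. Of 27 listed genes, 22 were tested, 3 fell, 1 rose and 18 did not pass, beside 0.592% of all genes called lower and 0.975% higher. The median was −0.31, and 18 of the 22 lay below 0. Within pairs 1 to 3 the medians were −0.34, −0.02 and −0.32, so pair 2 hardly shifted. IL1B, which encodes the inflammatory cytokine interleukin-1β, stood at 2369, 1908 and 1956 CPM in LPS and 1624, 1749 and 1467 CPM in SemaLPS cultures, without overlap. Its log2 fold change was −0.36 (SE 0.07, adjusted p = 0.0166). The call of IL1B was lost without LPS-1 (−0.29, adjusted p = 0.131), without SemaLPS-1 (−0.31, adjusted p = 0.118) and without SemaLPS-3 (−0.33, adjusted p = 0.0763). An IL1B UMI was present in 93.1, 89.5 and 87.0% of thinned LPS cells and in 90.8, 88.3 and 84.8% of SemaLPS cells (unthinned 97.4, 95.4 and 95.4% against 97.6, 95.3 and 95.5%). The median cell held 14, 10 and 11 IL1B UMIs in LPS and 9, 9 and 7 in SemaLPS cultures.

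EDN1, a vasoactive peptide, fell by 0.32 (SE 0.06, adjusted p = 0.00944), and HBEGF, a growth factor of the EGF family, fell by 0.50 (adjusted p = 0.0303). HBEGF was seen in fewer cells with LPS than without it. Its UMI was found in 26.2, 35.8 and 34.5% of thinned Ctrl cells and 10.9, 11.9 and 15.7% of LPS cells. Unthinned, the shares were 44.9, 56.9 and 56.2% against 21.8, 26.4 and 32.6%. EDN1 lost its call without LPS-1 (adjusted p = 0.106) and without SemaLPS-1 (0.0888 adjusted), and HBEGF in 5 of 12 such fits. LTB, a member of the TNF family, stood at 42.9, 23.2 and 24.1 CPM in LPS and 52.2, 30.3 and 35.6 CPM in SemaLPS cultures, higher in all pairs (0.40, SE 0.08, adjusted p = 0.0247). LTB lost its call in 5 of 12 fits, among them at an adjusted p of 0.136 without SemaLPS-1. TNF, IL6, IL10 and IL12B did not pass. TNF stood at 187, 173 and 103 CPM in LPS and 148, 173 and 110 CPM in SemaLPS cultures (−0.09, SE 0.11, adjusted p = 0.81). IL6 had a log2 fold change of −0.26 (SE 0.09, adjusted p = 0.205) and IL10, an anti-inflammatory cytokine, of 0.10 (SE 0.13, adjusted p = 0.829). IL10 was also seen in fewer cells with LPS, in 4.37, 4.21 and 3.1% of thinned Ctrl cells and 1.89, 2.24 and 1.88% of LPS cells. Unthinned, these were 10.9, 9.91 and 9.47% against 4.77, 6.19 and 4.3%. IL12B, a subunit of interleukins 12 and 23, had the lowest value of the list, −0.70, from a mean of 8.24 to 5.13 CPM (adjusted p = 0.0691).

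Of 15 tested CC chemokines, 1 rose and none fell (median −0.14, and −0.28, −0.02 and −0.06 within pairs 1 to 3). Among all genes 0.975% were called higher and 0.592% lower. CCL2, which attracts monocytes, stood at 902, 741 and 551 CPM in LPS and 1033, 915 and 885 CPM in SemaLPS cultures. It was higher in every pair, although LPS-1 overlapped the SemaLPS range (0.39, SE 0.07, adjusted p = 0.00939). Without SemaLPS-3 it was 0.33 (adjusted p = 0.0514). A CCL2 UMI was found in 79.1, 77.4 and 65.3% of thinned LPS cells and in 85.6, 82.4 and 78.7% of SemaLPS cells (unthinned 91.3, 89.6 and 83.7% against 93.7, 91.9 and 90.5%). CCL3 and CCL4, which attract macrophages and T cells, had log2 fold changes of −0.19 (adjusted p = 0.233) and −0.15 (adjusted p = 0.39). Of 9 tested CXC chemokines only CXCL16, given above, passed. CXCL8, which attracts neutrophils, stood at 1286, 1077 and 1110 CPM in LPS and 1066, 1168 and 1012 CPM in SemaLPS cultures (−0.10, SE 0.08, adjusted p = 0.71).

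Listed genes for TLR4 and NF-κB gave no call. None of 13 genes for TLR4 and its adaptors and none of 19 NF-κB subunits and inhibitors passed, with medians of −0.02 and −0.04. Outside these lists, the kinase genes MAP2K3 and RIPK2 were called lower. Each kept its call in 4 of 12 fits that left out a culture, with adjusted p up to 0.223 and 0.23. NFKBIA, the inhibitor that NF-κB induces against itself, was at 567 CPM in LPS and 569 CPM in SemaLPS cultures in the mean (0.00, adjusted p = 0.984). REL, an NF-κB subunit, had the lowest value, −0.26 (adjusted p = 0.066). None of 30 interferon-response genes passed, although 22 lay below 0 and the median was −0.16 (−0.09, −0.04 and −0.20 within pairs 1 to 3). IFI6, an interferon-induced mitochondrial protein, had the lowest value, −0.97 (adjusted p = 0.198), with 43.1, 35.3 and 193.6 CPM in LPS and 34.6, 39.9 and 43.8 CPM in SemaLPS cultures, so that LPS-3 stood apart. STAT4, a transcription factor of the interleukin-12 pathway, fell from 2.04, 1.92 and 3.59 CPM to 0.958, 1.33 and 0.901 CPM (−1.20, SE 0.23, adjusted p = 0.0152). STAT4 lost its call without LPS-1, SemaLPS-1, LPS-3 and SemaLPS-3, with adjusted p between 0.0632 and 0.116.

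Genes of MAP kinase feedback divided. Of 18 tested, 2 fell and 1 rose, beside 0.592% of all genes called lower and 0.975% higher. DUSP1, a phosphatase that switches off p38 and JNK, stood at 50.6, 47.8 and 48.0 CPM in LPS and 35.0, 39.6 and 33.0 CPM in SemaLPS cultures, without overlap. Its log2 fold change was −0.44 (SE 0.05, adjusted p = 0.000763), with −0.39 (SE 0.06) without LPS, and it was the other gene that passed in every alternative run. DUSP6, a phosphatase for ERK, fell by 0.30 (SE 0.04, adjusted p = 0.00212) and was at 0.00 without LPS (interaction −0.31, adjusted p = 0.0978). ETV5, a transcription factor induced by ERK, rose by 0.17 (SE 0.03, adjusted p = 0.00604), and its adjusted p was 0.0519 without LPS-1. None of 25 immediate-early genes passed under LPS, while 23 lay below 0 (median −0.12, and −0.14, −0.03 and −0.14 within pairs 1 to 3). Without LPS 8 of these 25 fell, beside 2.96% of all genes called in either direction, and none passed the interaction. EGR3, an early growth response factor, stood at 3.77, 4.02 and 3.51 CPM in LPS and 3.23, 2.81 and 2.70 CPM in SemaLPS cultures, without overlap (−0.37, SE 0.11, adjusted p = 0.0965).

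Among genes with at least 20 CPM, the following were among the 12 largest falls. IBSP, a bone matrix sialoprotein, stood at 104, 147 and 146 CPM in LPS and 58.8, 63.7 and 103 CPM in SemaLPS cultures. The groups did not overlap, and the log2 fold change was −0.85 (SE 0.10, adjusted p = 0.000763), with −0.09 without LPS (interaction −0.75, adjusted p = 0.0657). In thinned cells an IBSP UMI was found in 12.0, 13.7 and 13.9% of LPS cells and 7.67, 9.89 and 12.1% of SemaLPS cells (unthinned 18.4, 20.4 and 20.4% against 14.5, 14.9 and 17.9%), and the top 1% of cells held 31.3 to 51.7% of its UMIs. GLDN, an adhesion protein of the olfactomedin family, fell by 0.54 (SE 0.06, adjusted p = 0.00073). RAMP1, a partner of the CGRP receptor, fell by 0.46 (SE 0.04, adjusted p = 0.000453). PDGFA, a platelet-derived growth factor, stood at 64.4, 66.0 and 59.3 CPM in LPS and 44.9, 50.2 and 51.5 CPM in SemaLPS cultures, without overlap (−0.37, SE 0.05, adjusted p = 0.0018). SH3PXD2B, a scaffold of podosomes, fell by 0.37 (adjusted p = 0.0017), PLAUR, the urokinase receptor, by 0.32 (adjusted p = 0.00198) and SLC11A1, a metal exporter of the phagosome, by 0.36 (adjusted p = 0.00444). The calls of IBSP, GLDN, RAMP1, PDGFA, SH3PXD2B, PLAUR and SLC11A1 held without each culture.

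Metallothioneins are small proteins that bind zinc and copper. Between LPS and SemaLPS cultures, 3 of 11 tested metallothionein and zinc-transport genes fell, none rose and 8 did not pass, with a median of −0.61. The share called lower over all genes was 0.592%. Within pairs 1 to 3 the medians were −0.73, −0.35 and −0.11. MT1X stood at 41.9, 37.7 and 35.5 CPM in LPS and 25.1, 26.5 and 24.1 CPM in SemaLPS cultures, without overlap (−0.61, SE 0.09, adjusted p = 0.0033). MT2A stood at 119, 110 and 148 CPM in LPS and 62.9, 96.8 and 80.5 CPM in SemaLPS cultures, again without overlap (−0.66, SE 0.15, adjusted p = 0.0461). MT1M fell by 1.77 (SE 0.42, adjusted p = 0.0473) but was lower in 2 of 3 pairs, read from 51 to 214 UMIs per LPS culture and 26 to 62 per SemaLPS culture. Very few cells held a MT1M UMI: 0.631, 0.672 and 0.469% of thinned LPS cells and 0.543, 0.633 and 0.452% of SemaLPS cells (unthinned 1.12, 1.19 and 1.41% against 0.883, 1.55 and 0.98%). The calls of MT2A and MT1M were each lost in 7 of 12 fits that left out a culture, with adjusted p of 0.243 and 0.262 without LPS-1. With library 1 alone, MT1X was −0.31 (adjusted p = 0.494), and with library 2 alone −0.88 (adjusted p = 0.0156).

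The share of cells with a MT1X UMI did not follow the summed level: it was 17.0, 14.4 and 14.5% of thinned LPS cells and 19.1, 15.2 and 15% of SemaLPS cells (unthinned 36.2, 31.9 and 33.9% against 40.7, 35.3 and 33.2%). The top 1% of cells held 32.9, 45.3 and 44.3% of MT1X UMIs in LPS and 17.2, 30.5 and 29.5% in SemaLPS cultures. Without LPS both genes went the other way: MT1X rose by 0.71 (SE 0.10, adjusted p = 0.00291) and MT2A by 0.89 (SE 0.20, adjusted p = 0.03) between Ctrl and Sema cultures. In thinned cells, the top 1% held 19.6, 43.8 and 34.5% of MT1X UMIs in Ctrl and 48.8, 44.9 and 54.9% in Sema cultures. For MT2A they held 48.7, 79.4 and 72.6% in Ctrl and 77.0, 77.7 and 82.7% in Sema cultures. A MT2A UMI was present in 7.79, 6.03 and 5.49% of thinned Ctrl cells and 7.48, 6.33 and 6.65% of Sema cells (unthinned 17.3, 15.6 and 14.1% against 17.7, 14 and 15.5%). Under LPS the MT2A share was 28.1, 28.1 and 32.1% in LPS and 22.9, 30.3 and 24.9% in SemaLPS cells (unthinned 46.8, 47.5 and 52.4% against 43.4, 48.5 and 45.4%). The interaction was −1.32 for MT1X (adjusted p = 0.00164) and −1.55 for MT2A (adjusted p = 0.0411). Metallothionein genes are close copies of each other, so their split of UMIs is uncertain.

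MT1X (chromosome 16, 56682424 to 56684196, plus strand, GENCODE v29) is printed for its metal response elements, to which the zinc sensor MTF1 binds. Its 250 bases before the RefSeq start (GRCh38.p14, chr16:56682220-56682469, plus strand) hold 4 matches to the core TGCACNC or TGCGCNC on either strand, in capitals, beginning 150, 122, 78 and 53 bases before the start.
MT1X: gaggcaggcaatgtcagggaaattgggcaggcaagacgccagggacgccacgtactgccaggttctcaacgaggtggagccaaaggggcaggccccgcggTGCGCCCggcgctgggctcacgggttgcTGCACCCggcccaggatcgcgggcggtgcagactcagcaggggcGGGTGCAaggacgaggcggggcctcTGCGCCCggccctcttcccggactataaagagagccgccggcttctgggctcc
The core occurred in 24.8% of all windows, in 40.4% of windows of genes that fell and in 32.4% of windows of genes that rose. MTF1 itself had a log2 fold change of −0.11 (adjusted p = 0.186).

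For sterol synthesis and uptake, 21 genes were tested, 8 rose, none fell and 20 lay above 0, with a median of 0.11. The shares over all genes were 0.975% called higher and 0.592% called lower. FDPS, which makes farnesyl diphosphate, stood at 98.4, 83.1 and 82.7 CPM in LPS and 114, 98.7 and 98.0 CPM in SemaLPS cultures, higher in each pair (0.23, SE 0.03, adjusted p = 0.000996). ACAT2, which makes acetoacetyl-CoA at the start of the pathway, rose by 0.24 (SE 0.04, adjusted p = 0.00886). HMGCS1, the synthase for HMG-CoA, rose by 0.23 (adjusted p = 0.01), with an adjusted p of 0.076 without LPS-1 and 0.056 without SemaLPS-3. MSMO1, a sterol oxidase, rose by 0.21 on the log2 scale, with an adjusted p of 0.0525 without LPS-1 and 0.0508 without SemaLPS-3. The other 4 rises, CYP51A1, FDFT1, DHCR7 and IDI1, kept their calls in 8, 7, 6 and 5 of 12 fits that left out a culture, with adjusted p up to 0.193, so that of the 8 only FDPS and ACAT2 held in every such fit. TMEM97, a sterol-regulated receptor outside the list, rose by 0.40 (SE 0.05, adjusted p = 0.00176). Of 14 tested genes for lipid efflux and its regulator LXR, 3 fell and 1 rose. ABCA1, a cholesterol exporter, fell by 0.23 (SE 0.05, adjusted p = 0.0218) and ABCG1, its partner, by 0.17 (SE 0.04, adjusted p = 0.0286). ABCA1 lost its call in 3 and ABCG1 in 5 of 12 fits that left out a culture, with adjusted p of 0.131 and 0.081 without LPS-1.

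In the list of unfolded-protein and amino acid stress, 21 genes were tested, 4 rose and none fell (median 0.10), beside 0.975% of all genes called higher. The rises were the serine synthesis enzymes PHGDH and PSAT1 and the chaperone genes HSPA5 (0.11) and SDF2L1 (0.16). HSPA5 kept its call in 5 and SDF2L1 in 4 of 12 fits that left out a culture, with adjusted p up to 0.178 and 0.183. PHGDH, the first enzyme of the serine pathway, was read from 80, 31 and 52 UMIs in LPS and 145, 116 and 85 UMIs in SemaLPS cultures, not scaled for depth. Its log2 fold change, which is scaled, was 0.95 (SE 0.17, adjusted p = 0.00886, and 0.0646 without LPS-1). PSAT1, the second enzyme, stood at 11.5, 5.87 and 6.90 CPM in LPS and 19.3, 9.61 and 11.1 CPM in SemaLPS cultures, higher in each pair (0.72, SE 0.09, adjusted p = 0.000875). Without LPS the values were 0.24 and 0.08. The sensors and transcription factors of the stress response did not pass: ATF4, which drives amino acid synthesis genes, was at 0.10 (adjusted p = 0.169), and DDIT3 and XBP1 were at 0.01 and 0.00. Of 14 tested heat shock genes, 4 rose, each by at most 0.11, among them HSPA8 (0.11, adjusted p = 0.0149). HSPA8 lost its call without LPS-2, SemaLPS-2 and SemaLPS-3, with adjusted p of 0.0617, 0.109 and 0.0517, and HSPD1, HSP90AB1 and HSPE1 kept theirs in 7, 6 and 5 of 12 fits.

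Of 31 tested genes of resting (homeostatic) microglia, 5 rose, 1, TREM2, fell and 25 did not pass (median 0.05). The shares over all genes were 0.975% called higher and 0.592% called lower. BIN1, a membrane-bending protein, stood at 23.8, 20.5 and 17.1 CPM in LPS and 34.5, 26.4 and 21.4 CPM in SemaLPS cultures, higher in each pair (0.42, SE 0.06, adjusted p = 0.00187). AIF1, the microglial marker IBA1, rose by 0.21 (SE 0.02, adjusted p = 0.00073), and C1QA, a complement subunit, by 0.14 (SE 0.02, adjusted p = 0.00813, and 0.0616 without SemaLPS-1). P2RY12, a purine receptor of resting microglia, was at 4.41, 4.87 and 3.87 CPM in LPS and 5.62, 4.09 and 4.86 CPM in SemaLPS cultures, with overlap (0.14, SE 0.12, adjusted p = 0.71). Of 29 tested disease-associated genes, 6 fell, 1, CTSZ, rose and 22 did not pass (median −0.05). SPP1, osteopontin, was the most abundant of the falls, at 42680, 43700 and 46550 CPM in LPS and 35120, 38660 and 41340 CPM in SemaLPS cultures (−0.21, SE 0.03, adjusted p = 0.00176). CD9, a tetraspanin, fell by 0.22 (SE 0.03, adjusted p = 0.00212), and LPL, a lipoprotein lipase, by 0.26 (adjusted p = 0.00886). The calls of BIN1, AIF1, SPP1, CD9, LPL and TREM2 held without each culture. TREM2 is on both lists and on that of γ-secretase substrates.

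The remaining lists held few calls, each read beside 1.57% of all genes. In complement genes 1 of 17 rose (C1QA) and 1 fell (ITGAX, an integrin of complement receptor 4, at −0.22), and in lysosomal genes 1 of 28 rose (CTSZ) and 1 fell (LIPA, the acid lipase, at −0.15). In prostaglandin and leukotriene genes 2 of 16 rose, LTC4S, the leukotriene C4 synthase (0.31), and ALOX5AP, the activator of 5-lipoxygenase (0.14). Of 18 tested scavenger and phagocytic receptors, SIRPA and OLR1, a receptor for oxidised lipoprotein (−0.21), fell. In TGF-β genes 1 of 21 fell (PMEPA1, a feedback inhibitor, at −0.30), in matrix proteases 1 of 18 (PLAUR) and in amino acid transporters 1 of 13 (SLC43A2, at −0.17). No gene passed among 24 of glycolysis and hypoxia, 18 of T cell costimulation and 13 mitochondrial transcripts, with medians of 0.01, −0.07 and 0.02. LTC4S and PLAUR kept their calls without each culture. The others lost theirs in some of the 12 fits that left out a culture: C1QA kept its call in 11, ITGAX and LIPA in 10, PMEPA1 in 9, SIRPA in 8, SLC43A2 in 7, ALOX5AP and CTSZ in 6 and OLR1 in 5. The highest adjusted p in these fits was 0.209 for OLR1 and 0.213 for ALOX5AP.

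Most changes had the same sign with and without LPS. The 2 comparisons share no culture, but they share the fit and its blocks. Without LPS, 456 genes (2.96%) were called between Sema and Ctrl. Of the 241 genes called under LPS, 71 (29.5%) were among them, which is 15.6% of the 456. Of the 71, 68 moved the same way (41 up, 27 down), and 3 moved in opposite directions. Of all 241, 206 (85.5%) had the same sign without LPS, beside 64.4% of all genes with at least 20 CPM. A call in one comparison and not in the other does not show a difference between them, which the interaction tests directly.

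**Figure D5:**
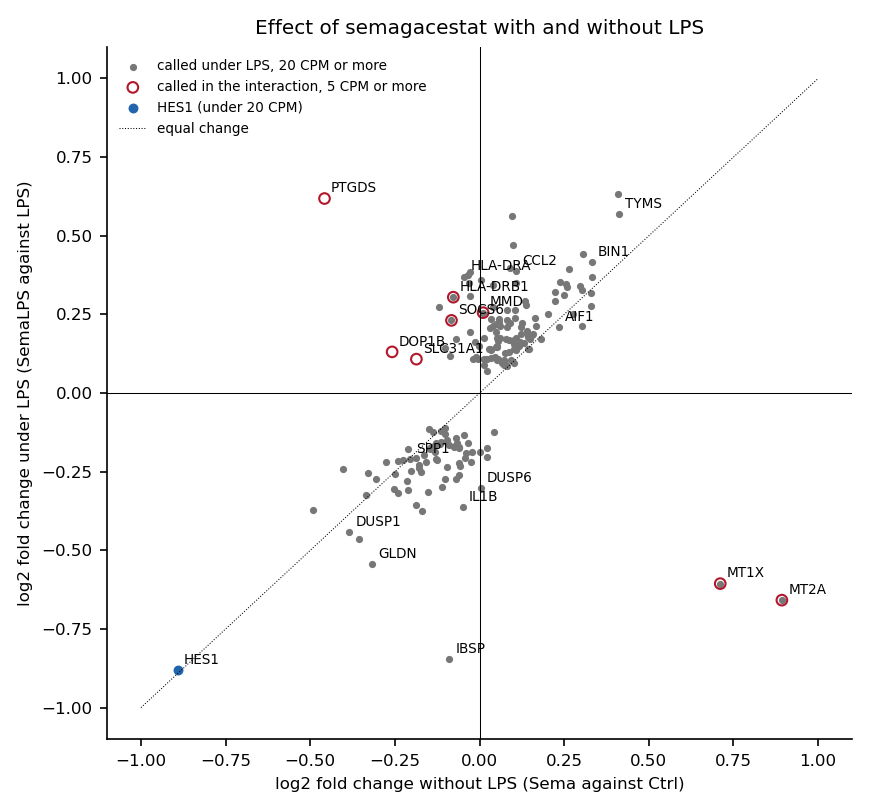
Log2 fold change of semagacestat without LPS (horizontal) and under LPS (vertical) for called genes with at least 20 CPM, with HES1 added and genes called in the interaction circled where they had 5 CPM or more. HES1 lies on the dotted line of equal change, while MT1X and MT2A lie in the opposite quadrant.

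The interaction was called for 10 genes (0.065%), 8 of them with a more positive effect under LPS, and 1226 genes had an unadjusted p under 0.05. It did not pass for HES1, DUSP1, SPP1, CD9 or AIF1, whose 2 effects were within 0.06 of each other. Apart from MT1X, MT2A and HLA-DRB1, SOCS6, a suppressor of cytokine signalling, rose under LPS by 0.23 (SE 0.03, adjusted p = 0.0018) and was at −0.08 without it. PTGDS, a prostaglandin D synthase, was read at 6.21, 5.08 and 8.45 CPM in LPS and 10.1, 7.46 and 12.7 CPM in SemaLPS cultures (0.62, SE 0.11, adjusted p = 0.00852, and 0.0583 without SemaLPS-1), but fell by 0.46 (SE 0.11, adjusted p = 0.0444) without LPS. Few cells held a PTGDS UMI: 2.87, 2.46 and 2.73% of thinned LPS cells and 3.19, 2.93 and 3.47% of SemaLPS cells. Unthinned, the shares were 6.31, 5.82 and 5.31% against 5.91, 5.35 and 5.5%, so they did not follow the summed level. MMD, a macrophage differentiation protein, rose by 0.26 (SE 0.03, adjusted p = 0.000763) under LPS and was at 0.01 without it. The count of 10 was not stable: it lay between 1 and 38 when 1 culture was left out.

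COL3A1, a fibrillar collagen, had the highest log2 fold change of all called genes, and that value rests on 2 cells. Its UMIs were 15, 2 and 2 in LPS-1 to LPS-3 and 3, 920 and 3 in SemaLPS-1 to SemaLPS-3, and 918 of the 920 lay in 2 cells of SemaLPS-2. Without SemaLPS-2 it was not called (adjusted p = 0.96). LUM, a collagen-binding proteoglycan, had 322 UMIs in SemaLPS-2 and at most 21 in the other 5 cultures. Leaving out the cells with at least 20 UMIs of stromal markers changed the count of called genes from 241 to 248, of which 235 were among the 241.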

How the data were processed

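Single-cell RNA and hashtags were measured in 12 cultures of H9-derived cells, and the pool was run as 2 libraries (10x 3' v3.1). For each gene, hashtag and barcode the authors deposited a raw UMI count. Cell Ranger 6.0.1 wrote the matrices, per the file headers. The submitters' processing notes list Seurat 4.1.1, Cell Ranger 3.0.2 and the build hg38. Which gene annotation was used is not stated in the labels or headers. GENCODE v29 on GRCh38 gave gene positions for 94.58% of the gene IDs. Promoter windows are RefSeq's (GRCh38.p14).

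Of 28943 barcodes, 24662 were assigned to a culture, 4114 (14.21%) missed the hashtag ratio and 167 the minimum. Doublets within 1 culture were not removed. The UMIs of a culture's cells were added up across the 2 libraries. Tests used edgeR 4.0.16 (R 4.3.3): filterByExpr, TMM scaling, glmQLFit and glmQLFTest, all 12 cultures in 1 fit with condition and replicate number as terms, Benjamini-Hochberg adjustment over 15383 genes. The fit has 6 residual degrees of freedom. CPM are TMM-scaled, except for marker sums, which are not. SE values are approximate, obtained as the size of the log2 fold change over the root of the F statistic. Shares of cells with a UMI used cells thinned to 10000 UMIs, which left out 13 to 49 cells per LPS-treated culture. The code was tested on simulated counts, where 14 of 172 calls fell on unchanged genes. Of 50 genes changed by 1.25-fold there, 32 were recovered, and 16 of 16 among those with at least 20 CPM.

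The meaning of a replicate number is not stated in the labels. Its use as a pairing rests on the data: over 5275 genes, deviations from condition means were correlated between cultures of different conditions. The values were 0.42 to 0.75 for cultures of the same number and −0.53 to 0.22 for cultures of different numbers. Deviations within a condition cancel out, so values between different numbers are partly forced to be negative.

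Named genes were the 12 largest rises and 12 largest falls among called genes with at least 20 CPM and 1 direction in 3 pairs, up to 3 called members per list, up to 10 interaction genes, and HES1, NRARP, EGR3, the γ-secretase subunits, IL1B, IL6, TNF, IL10, CXCL8 and P2RY12. Some genes covered by this rule are not reported here. Further genes were chosen after their values were seen, as were the Y box and metal response motifs. The comparison, lists and tests were chosen with earlier results of these data known. Alternatives were no block, the 6 LPS-treated cultures alone, DESeq2 1.42.0, its size factors, no filter, other cell filters, single libraries and leaving out each culture. Leaving out dividing cells, cells with stromal markers and cells with a second hashtag over 100 UMIs was added after seeing the data.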

Additional observations from a re-analysis of the deposited data

Results flagged for a closer look

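For 10 genes the effect of semagacestat differed between LPS-treated and other cultures by the interaction term of edgeR's quasi-likelihood test. On the log2 scale, the effect under LPS minus that without it was −1.32 for MT1X, −1.55 for MT2A, 0.31 for SOCS6, 1.08 for PTGDS, 0.38 for HLA-DRB1, 0.29 for SLC31A1, a copper importer, 0.39 for DOP1B and 0.25 for MMD. For LUM it was 9.61 and for COL3A1 8.83. These last 2 are fitted values that depend on the prior count, since some cultures held 0 to 2 UMIs and single cultures (SemaLPS-2 and Ctrl-2) held nearly all of the rest. SLC31A1 and DOP1B were not called under LPS (0.11, adjusted p = 0.158, and 0.13, adjusted p = 0.252), and fell by 0.19 and 0.26 without LPS (adjusted p = 0.00856 and 0.00344).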

How the results depend on the processing

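Without the replicate block 2 genes passed (0 higher, 2 lower), HES1 and DUSP1, and the interaction gave 1. Fitting only the 6 LPS-treated cultures, with the block, gave 142 (97 higher, 45 lower), and the interaction cannot be fitted there. Without a filter on low counts there were 901 (594 higher, 307 lower), and 299 in the interaction. A hashtag ratio of at least 10 gave 147 (94 higher, 53 lower), and 1 in the interaction. Library 1 alone gave 79 (46 higher, 33 lower), and 4 in the interaction. The count of 10 in the interaction became 28 with DESeq2, 2 with up to 20% mitochondrial UMIs, 2 without high-UMI cells, 5 with library 2 alone, 2 with a second hashtag of at most 100 UMIs and 17 without dividing cells. Leaving out each culture in turn gave 127 to 300 called genes, 76 to 200 higher, 40 to 146 lower and 1 to 38 in the interaction. The calls among the 241 that DESeq2 also made were 186 of its 226. For 16 of 34 gene lists, at least 1 alternative moved the median by the standard deviation of its pair medians or more. The cause of these shifts was not tested.

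Direction changed for few of the named genes. HIST1H1B was −0.194 without dividing cells. The LUM log2 fold change was −0.249 with DESeq2, −0.533 with a hashtag ratio of at least 10, −0.826 with a second hashtag of at most 100 UMIs, −0.665 without dividing cells and from −1.594 (without LPS-2) to 5.364 when a culture was left out. The COL3A1 log2 fold change ranged from −0.296 (without LPS-2) to 7.331. The rest were not called. NRARP was 0.063 with the hashtag ratio, 0.010 with library 1, 0.015 with the second hashtag limit, and −0.212 to 0.130 when a culture was left out (above 0 without LPS-1, LPS-3 or SemaLPS-3, at 0.068 to 0.130). NCSTN was 0.027 with library 2. APH1A was −0.001 with the hashtag ratio, −0.016 with library 2 and −0.002 (without LPS-2) to 0.035 with a culture left out. APH1B was 0.000 without the filter, 0.013 with the hashtag ratio, 0.039 without dividing cells, and −0.031 to 0.015 with a culture left out (0.015 and 0.008 without LPS-3 and SemaLPS-3). TNF ranged from −0.233 to 0.031 (without LPS-1). IL10 was −0.387 with library 1, 0.593 with library 2, and −0.066 (without SemaLPS-1) to 0.233 with a culture left out.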

Other observations

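Several called genes belong to no group described above. ACTB, cytoplasmic actin, rose from a mean of 7996 to 8616 CPM (log2 fold change 0.11, adjusted p = 0.00314). CLU, the secreted chaperone clusterin, rose from 5.16 to 8.44 CPM (0.71, adjusted p = 0.00216). MS4A6A, a membrane protein of myeloid cells, rose from 92.4 to 117 CPM (0.34, adjusted p = 0.000763). KDM6B, a histone demethylase that LPS induces, fell from 46.7 to 37.7 CPM (−0.31, adjusted p = 0.00216). ITGB1, the integrin β1 chain, fell from 601 to 514 CPM (−0.23, adjusted p = 0.00176). All 5 kept their calls without each culture. These genes were chosen after their values were seen.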
